A study of Homo sapiens with 6 samples.

Results

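The genes described here encode 8 components of the PI3K, AKT and mTOR pathway: PIK3CA, PIK3CB, PIK3CD, PIK3R1, INPP5D, AKT1, MTOR and RPTOR. They were found as the probes of the Agilent catalogue whose RefSeq accession maps to one of these genes, which gave 9 probes (2 for PIK3CD and 1 for each other gene) of 57176 probes on the array, and 8 genes of the 19721 genes with a symbol. To study how these genes behave when the ETV6/RUNX1 fusion is silenced, arrays of REH cells with the fusion knocked down (n = 3) were set against control arrays (n = 3). REH is a human line of B-cell precursor acute lymphoblastic leukemia (BCP-ALL) that carries ETV6/RUNX1, a fusion of 2 transcription factor genes, and per the study its other ETV6 allele is deleted. All cells of both groups were transduced with a lentiviral vector that carries a short hairpin RNA (shRNA) and green fluorescent protein, and were sorted for the fluorescence before RNA was taken. The knockdown cells received an shRNA against the fusion, which binds its ETV6 part. The control cells received what the labels call a non-targeting shRNA, and per the study's methods this was an ETV6 shRNA that did not hit the fusion. One cell line and a single targeting shRNA were used.

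In B cells, class I phosphoinositide 3-kinases (PI3K) pair a catalytic with a regulatory subunit and make a membrane lipid that recruits the kinase AKT. AKT in turn relieves a brake on mTOR, a kinase that promotes protein synthesis and cell growth as part of complexes such as mTORC1. Lipid phosphatases remove the signal. Signals of this kind from the pre-B-cell receptor and the B-cell receptor control survival and proliferation of B cells and their precursors.

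None of the 9 probes passed the test, an adjusted p under 0.05 by limma over all 27490 retained probes, whereas 478 of the retained probes (1.74%) did, 126 higher (0.458%) and 352 lower (1.28%) in knockdown. Values are normalized log2 intensities, and differences are knockdown minus control on that scale with their 95% interval from limma (n = 3 per group throughout). Estimates ran from -0.21 for PIK3CB to 0.36 for PIK3CD, with a median of 0.07, against -0.002 over all retained probes. The 95% intervals of 8 of the 9 probes lay within a 2-fold change in either direction, and PIK3CB was the exception. All 9 probes were retained, and each was well above background on all 6 arrays. The smallest difference of any called probe on the array was 0.486 in size, so that changes of the size seen for these genes were below what the test called. Without adjustment, 3 probes had a p under 0.05, all higher in knockdown (both PIK3CD probes and the MTOR probe), where 12.5% of all retained probes reached that level. The groups did not overlap for the same 3 probes, where 9.0% of all retained probes were higher without overlap and 9.85% lower.

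**Figure D1:**
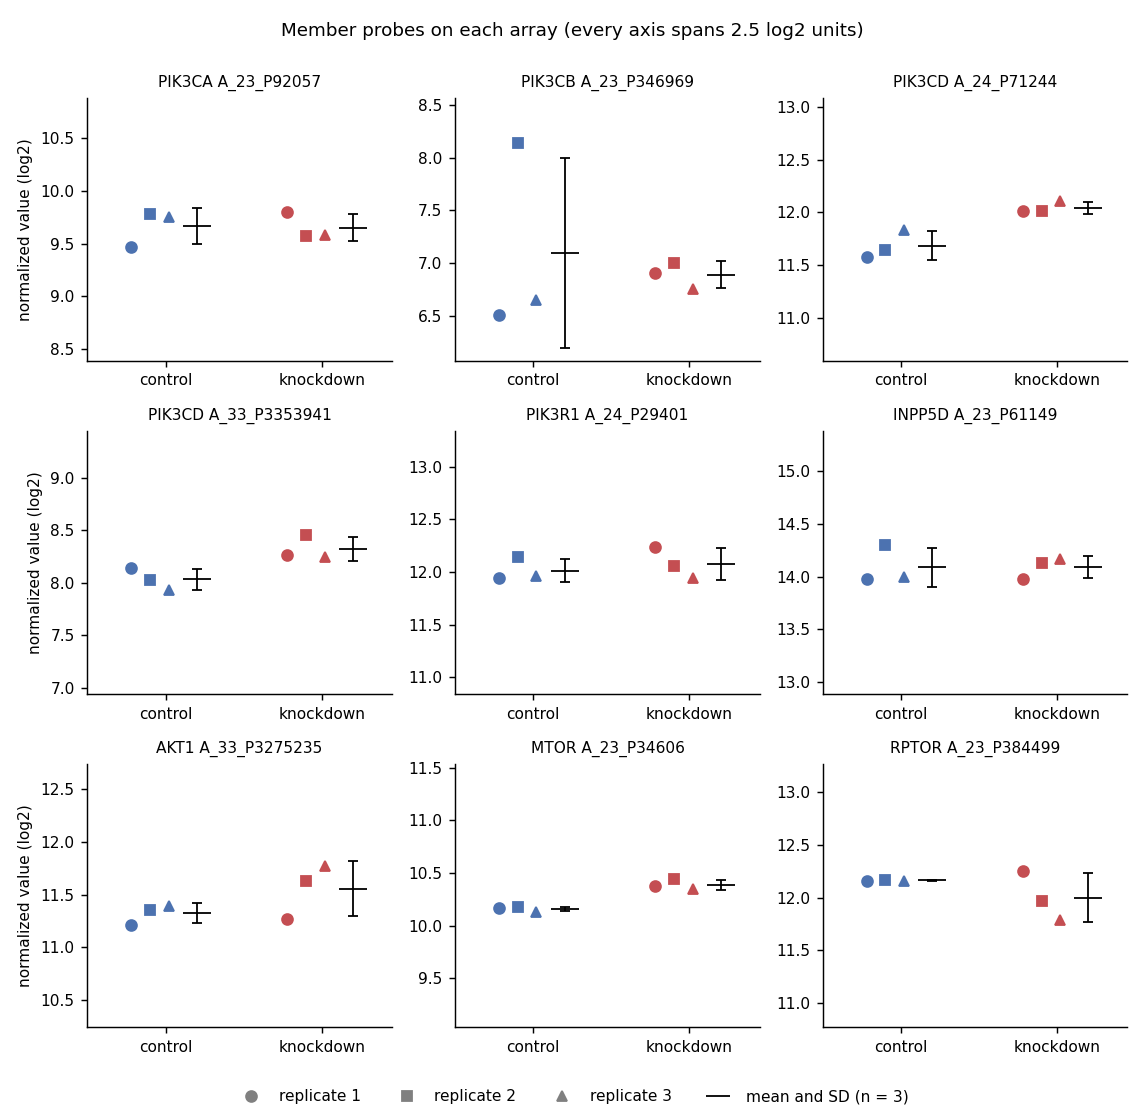
Normalized log2 value (vertical axis, each spanning 2.5 log2 units) of the 9 probes on each of the 3 control and 3 knockdown arrays, with symbols for the replicate number and bars for the mean and SD (n = 3). All 3 knockdown arrays lie above all 3 control arrays for both PIK3CD probes and for MTOR, and control replicate 2 stands alone at 8.14 for PIK3CB.

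First, the arrays and the targeted transcript were examined. Raw intensity had a median of 66 to 75 per array, compared with 42.3 to 48.0 on negative control spots, and the pairwise correlation of arrays over probes from 0.986 to 0.996. Precision is limited by how few arrays there are. Of the ETV6 probes, A_33_P3356325 measured 7.92, 8.05 and 8.37 on the control arrays and 7.50, 7.46 and 7.29 on the knockdown arrays. The groups were apart by -0.70 on the log2 scale (SE 0.14, adjusted p = 0.0513 by limma, not called), with an exact permutation p of 0.1, the smallest that 3 arrays against 3 allow. On the other ETV6 probe no array was well above background. The position of these probes in ETV6 was not analysed here. A probe that lies beyond the fused part of the gene cannot report on the fusion. The study itself reports that the fusion was silenced, and it assessed the fusion protein by Western blot and the transcript by RT-qPCR. Of 12 marker genes of B-cell precursors, 11 were well above background on all arrays and VPREB1 was not, whereas 3 of 7 T-cell genes, 3 of 7 myeloid genes and 3 of 5 erythroid genes with a probe were. Summed raw intensity of the B-cell precursor probes was 259063 to 296286 in control and 286336 to 427236 in knockdown. That of the T-cell probes was 5631 to 6129 and 5744 to 7112, of the myeloid probes 724 to 826 and 680 to 903, and of the erythroid probes 744 to 841 and 773 to 866. These sums are not normalized between arrays, so they also carry the brightness of each array. On the normalized scale the median log2 fold change of the retained marker probes was 0.15 for B-cell precursors and 0.10 for T cells. It was -0.05 for the myeloid and 0.03 for the erythroid probes. None of these marker probes was called, and their part in the values below was not tested. All arrays were of the REH line, sorted for fluorescence, so the marker values describe RNA of that line and not shares of blood cell types. In such bulk RNA, a change in every cell and a change in some of the cells cannot be told apart.

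PIK3CD encodes the delta catalytic subunit, the form of PI3K that is found mainly in white blood cells and that B-cell receptor signaling depends on. Both of its probes carry the accession NM_005026. The probe A_24_P71244 measured 11.57, 11.65 and 11.83 in control and 12.01, 12.01 and 12.11 in knockdown. All knockdown values were above all control values, and the difference of 0.36 (95% interval 0.12 to 0.60, a fold of 1.28) had an unadjusted limma p of 0.0092 and an adjusted p of 0.190. The dimmer probe, A_33_P3353941, measured 8.14, 8.03 and 7.94 in control and 8.26, 8.45 and 8.25 in knockdown. Its groups did not overlap either, with a difference of 0.29 (0.04 to 0.53), an unadjusted p of 0.0284 and an adjusted p of 0.316 by limma. With both probes averaged before the test, PIK3CD was 0.32 higher (limma adjusted p = 0.151). Knockdown was higher than the control of the same replicate number in 3 of 3 pairs for both probes, by 0.44, 0.36 and 0.28 for A_24_P71244 and by 0.12, 0.42 and 0.31 for A_33_P3353941. Both probes stayed higher in knockdown under each of 17 alternative ways of processing and called under none, from 0.21 to 0.72 for A_24_P71244 (adjusted p 0.0690 to 0.881 by limma) and from 0.22 to 0.65 for A_33_P3353941 (0.107 to 0.649). The lowest value of A_24_P71244 was that within the second row of the slide, where control replicate 3 and the 3 knockdown arrays lay. There, with 1 control array, the difference was 0.21, and that of A_33_P3353941 was 0.38.

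The promoters of the member genes were read for the hexamer TGTGGT, the core of the site that RUNX1 binds through the part retained in the fusion. Windows of 300 bases, from 250 before to 50 after an annotated start, came from RefSeq (GRCh38.p14), with 15 windows for the 8 genes. In a search of both strands the hexamer was found in 1 of the 15 windows, a PIK3CD window, and in 13.1% of 35116 windows of that length. A PIK3CD window is shown with the hexamer in capitals, which begins at position -218 from the annotated start. The MTOR window is shown as one without it, since these are the genes with the smallest unadjusted p. A match is a description of the letters and not a binding site.
PIK3CD chr1:9691217-9691516, plus strand: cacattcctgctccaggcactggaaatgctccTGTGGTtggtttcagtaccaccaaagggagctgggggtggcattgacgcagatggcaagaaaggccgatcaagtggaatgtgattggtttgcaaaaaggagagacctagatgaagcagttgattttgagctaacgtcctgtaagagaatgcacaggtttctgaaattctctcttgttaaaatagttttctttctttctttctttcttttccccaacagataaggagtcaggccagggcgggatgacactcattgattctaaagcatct
MTOR chr1:11262502-11262801, minus strand: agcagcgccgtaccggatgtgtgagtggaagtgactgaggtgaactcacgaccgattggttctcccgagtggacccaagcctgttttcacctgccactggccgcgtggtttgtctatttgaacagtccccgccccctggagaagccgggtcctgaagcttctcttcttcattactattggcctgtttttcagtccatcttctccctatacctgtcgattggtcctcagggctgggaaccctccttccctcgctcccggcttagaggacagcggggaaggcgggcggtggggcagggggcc
The other PIK3CD windows, at chr1:9651481-9651780 and chr1:9689294-9689593, held no match. Their content of G and C was 63.3% and 80.0%, compared with 45.0% in the window with the hexamer and 59.3% in that of MTOR.

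For both other catalytic subunits the groups overlapped. PIK3CA, the alpha subunit and a gene often mutated in solid tumors, measured 9.47, 9.78 and 9.76 in control and 9.80, 9.57 and 9.58 in knockdown on A_23_P92057 (NM_006218). Control replicate 1 was the lowest array and knockdown replicate 1 the highest, and the difference was -0.02 (-0.30 to 0.27, limma adjusted p = 0.968). PIK3CB, the beta subunit, measured 6.50, 8.14 and 6.65 in control and 6.91, 7.00 and 6.75 in knockdown on A_23_P346969 (NM_006219). Control replicate 2 stood far above the other control arrays, which were both below all 3 knockdown arrays. Raw intensity of this spot was 296.5 on control replicate 2, against 101.5 and 123 on the other control arrays. The within-group SD of 0.65 exceeded that of 98.6% of retained probes, and the difference of -0.21 (-1.10 to 0.68, limma adjusted p = 0.869) allowed folds from 0.468 to 1.6. Without control replicate 2 the difference turned to 0.31 (limma adjusted p = 0.580).

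PIK3R1 encodes the main regulatory subunit of class IA PI3K, which stabilises the catalytic subunits and holds them inactive until a receptor is engaged. Its probe A_24_P29401 (NM_181523) measured 11.94, 12.14 and 11.96 in control and 12.24, 12.06 and 11.94 in knockdown. The ranges overlapped nearly in full, and the difference was 0.07 (-0.20 to 0.33, limma adjusted p = 0.860). INPP5D encodes SHIP1, a phosphatase of blood cells that removes a phosphate from the lipid product of PI3K and restrains the signal of the B-cell receptor. On A_23_P61149 (NM_001017915) it measured 13.97, 14.30 and 13.99 in control and 13.97, 14.13 and 14.16 in knockdown. The group means differed by 0.003 (-0.28 to 0.28, limma adjusted p = 0.994), less than the SD of 0.18 among control and 0.10 among knockdown arrays.

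AKT1, the kinase that binds the lipid product of PI3K, measured 11.21, 11.36 and 11.39 in control and 11.27, 11.63 and 11.77 in knockdown on A_33_P3275235 (NM_005163). Knockdown replicate 1 lay within the control range and the other knockdown arrays above it, and the difference was 0.23 (-0.09 to 0.56, limma adjusted p = 0.562). AKT1 was higher in knockdown in 3 of 3 pairs of the same replicate number, by 0.05, 0.28 and 0.37. Across the 17 alternatives it stayed higher, from 0.13 without knockdown replicate 3 to 0.60 with spike-in scaling, and was never called.

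MTOR, the catalytic subunit of both mTOR complexes, measured 10.17, 10.17 and 10.13 in control and 10.37, 10.44 and 10.35 in knockdown on A_23_P34606 (NM_004958). The groups were apart, with a difference of 0.23 (0.02 to 0.43), an unadjusted p of 0.0334 and an adjusted p of 0.340 by limma. Arrays within a group agreed more closely here than for almost any other probe, with a pooled SD of 0.04 that 0.780% of retained probes fell under, against a median of 0.15 over all retained probes. The difference was 0.21, 0.26 and 0.21 in the 3 pairs of replicates. It ran from 0.20 to 0.59 across the 17 alternatives, with limma adjusted p from 0.139 to 0.816. RPTOR encodes Raptor, the scaffold that presents substrates to mTORC1. Its probe A_23_P384499 (NM_020761) measured 12.16, 12.17 and 12.16 in control and 12.25, 11.96 and 11.79 in knockdown. Control arrays agreed within an SD of 0.0051, while the knockdown arrays spread on both sides of them, and the difference was -0.16 (-0.46 to 0.13, limma adjusted p = 0.663). It was -0.29 without knockdown replicate 1 and -0.06 without knockdown replicate 3.

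**Figure D2:**
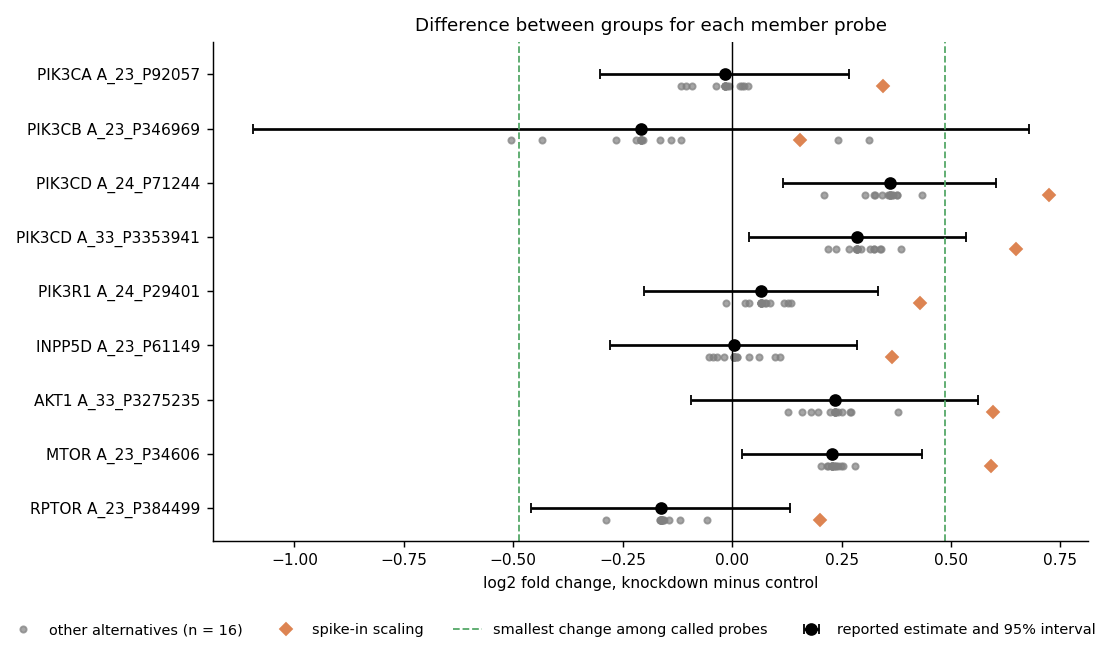
Log2 fold change (knockdown minus control, horizontal axis) of the 9 probes with its 95% interval from limma (black, n = 3 per group), with the 16 alternatives other than spike-in scaling in gray and spike-in scaling as a diamond. Dashed lines mark 0.486, the smallest change of a called probe in the reported fit. The intervals of both PIK3CD probes and of MTOR lie above 0, and none of the 9 estimates reaches the dashed lines.

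**Figure D3:**
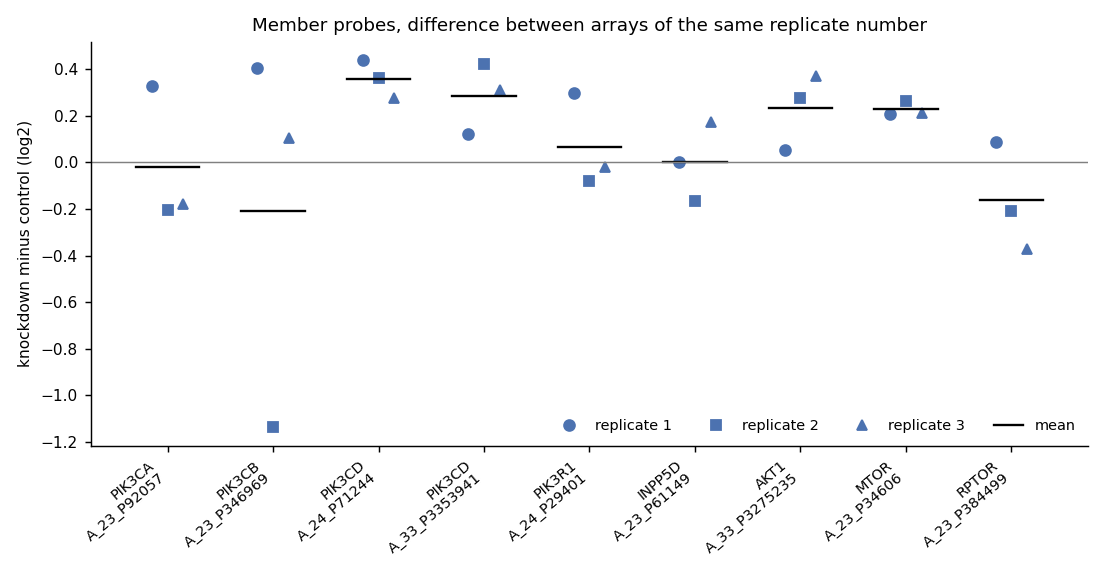
Difference between the knockdown and the control array of the same replicate number (log2, vertical axis) for the 9 probes, with the mean as a line. All 3 pairs are above 0 for both PIK3CD probes, AKT1 and MTOR, whereas pairs fall on both sides of 0 for PIK3CA, PIK3CB, PIK3R1, INPP5D and RPTOR.

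The direction of a difference rests on the scaling. With arrays scaled on 6 spike-in probes, the median of all retained probes moved to 0.36, and all 9 probes were higher in knockdown. Relative to that shift the differences were as above: PIK3CA stood at 0.35, whereas PIK3CD stood at 0.72 and 0.65, AKT1 at 0.60 and MTOR at 0.59. None of the 9 was called with this scaling, where 3.82% of retained probes were, 3.27% higher and 0.546% lower.

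The pattern across the 6 arrays most like that of PIK3CD was then looked for, using the probe with the smallest unadjusted p. Of 13644 genes, the highest Pearson correlations with A_24_P71244 were those of DCANP1 (r = 0.999), GALT (r = 0.996) and ADPGK (r = 0.995), over 6 arrays that also share the difference between groups. DCANP1 measured 10.16, 10.28 and 10.55 in control and 10.81, 10.78 and 10.92 in knockdown, a difference of 0.50 (limma adjusted p = 0.115). GALT, an enzyme of galactose metabolism, was at 0.31 (adjusted p = 0.237), and ADPGK, a glucokinase that uses ADP, at 0.17 (adjusted p = 0.519, both by limma).

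Next, the wider pathway was described with 8 lists of 121 genes, of which 120 had a probe and 115 had a retained one. Of their 160 retained probes, 2 were called, both lower in knockdown, and the median log2 fold change was 0.01. This is a share close to the 1.74% of all retained probes. Without adjustment, 20 probes had a p under 0.05, 8 higher and 12 lower, again near the 12.5% of all retained probes. With the replicate number as a block, which pairs the samples, the count was 8 probes, 5 higher and 3 lower, where 3.78% of all retained probes were called, 1.35% higher and 2.42% lower. None of the 9 member probes was among them, and the smallest limma adjusted p with the block was 0.0915, for PIK3CD.

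**Figure D4:**
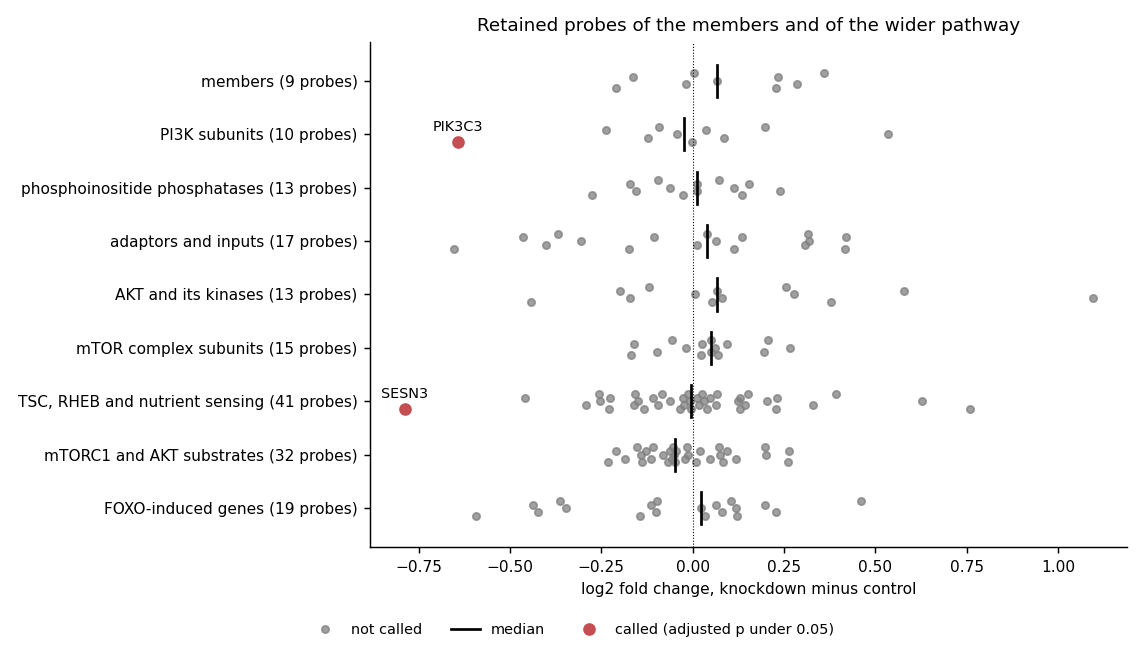
Log2 fold change (knockdown minus control, horizontal axis) of every retained probe of the 8 genes described first (members) and of the 8 pathway lists, with the median as a bar and called probes in red (limma adjusted p under 0.05). PIK3C3 and SESN3 are the called probes, both lower, and list medians lie between -0.05 and 0.07.

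Among the other PI3K subunits, 1 of 10 probes was called. PIK3C3, the class III enzyme VPS34 that serves autophagy and endosome traffic rather than AKT, measured 14.95, 14.84 and 14.81 in control and 14.43, 14.03 and 14.21 in knockdown. All control arrays were above all knockdown arrays, and the difference was -0.64 (SE 0.12, a fold of 0.641, limma adjusted p = 0.0478). This call was at the threshold, and 5 of the 17 alternatives kept it. It ended with spike-in scaling (-0.28, adjusted p 0.368), the processed signal (0.0839), the deposited values (0.0606), no filter on dim probes (0.141), the scanner flag (0.0516) or a raw threshold (0.0641) as the filter, within the second row of the slide (-0.59, adjusted p 0.415), and whenever an array other than knockdown replicate 1 was left out, with limma adjusted p of 0.144, 0.179 and 0.128 without control replicates 1, 2 and 3 and of 0.161 and 0.171 without knockdown replicates 2 and 3. PIK3C2B, a class II enzyme, was the uncalled gene of smallest p in this list, at 12.00, 11.30 and 11.39 in control and 12.56, 11.81 and 11.92 in knockdown. Replicate 1 was the highest in both groups, and the difference of 0.53 (SE 0.24) had a limma adjusted p of 0.428, but 0.0258 with the replicate block and 0.0137 with spike-in scaling (0.90).

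In the list of TSC, RHEB and nutrient sensing genes, 1 of 41 probes was called. SESN3, a sestrin that restrains mTORC1 and is induced by FOXO factors, measured 7.77, 7.39 and 7.78 in control and 6.91, 6.86 and 6.79 in knockdown. The groups were apart, with a difference of -0.79 (SE 0.13, a fold of 0.579, limma adjusted p = 0.0249), and 10 of the 17 alternatives kept the call. Leaving out control replicate 1 (adjusted p 0.0793), control replicate 3 (0.0979), knockdown replicate 2 (0.105) or knockdown replicate 3 (0.117) ended it in limma, as did spike-in scaling (-0.42, adjusted p 0.228), a term for the row of the slide (-0.92, adjusted p 0.105) and no filter on dim probes (adjusted p 0.0807). CASTOR1, an arginine sensor upstream of mTORC1, was the uncalled gene of smallest p, at 0.33 (limma adjusted p = 0.303) and, on its second probe, 0.23.

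Among 17 probes of adaptors and inputs, none was called and 9 had an unadjusted p under 0.05, 5 higher and 4 lower, where 12.5% of all retained probes had one (1572 higher and 1875 lower). SYK, the kinase that passes the signal of the B-cell receptor and its precursor to PI3K, measured 12.54, 12.69 and 12.53 in control and 12.95, 13.07 and 12.99 in knockdown. All knockdown arrays were higher, by 0.42 (SE 0.10, limma adjusted p = 0.0998), and SYK was called with spike-in scaling (0.78, limma adjusted p = 0.0443), which moved the median of all probes to 0.36. The receptor IGF1R was at -0.46 (adjusted p = 0.257) and the adaptor GAB1 at -0.65 (adjusted p = 0.254, both by limma). IGF1R and GAB1 were chosen after their values were seen.

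**Figure D5:**
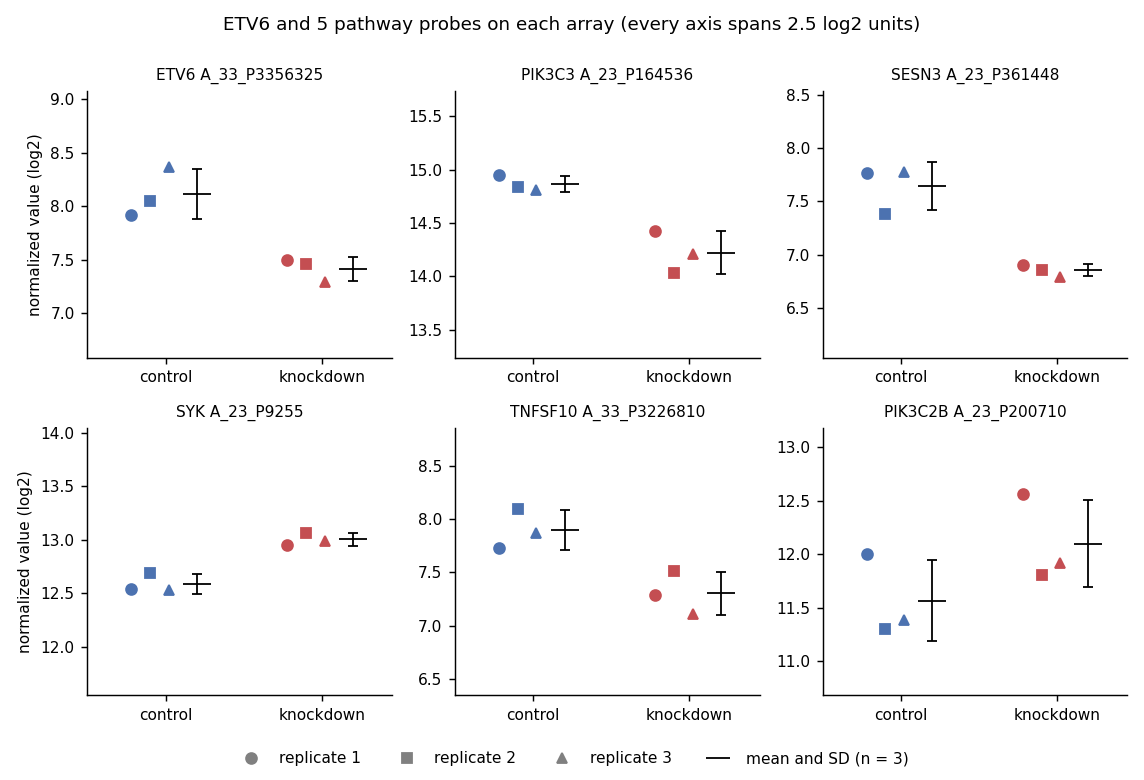
Normalized log2 value (vertical axis, each spanning 2.5 log2 units) of the ETV6 probe and of 5 pathway probes on each array, with the mean and SD (n = 3 per group). ETV6, PIK3C3, SESN3 and TNFSF10 are lower on all 3 knockdown arrays, SYK is higher on all 3, and PIK3C2B is highest in replicate 1 of both groups.

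Among AKT and its kinases and binding partners (13 probes), the mTOR complex subunits (15 probes), the phosphoinositide phosphatases (13 probes) and the substrates of mTORC1 and AKT (32 probes), none was called. The uncalled gene of smallest p was PLEKHA2, a lipid-binding adaptor, in the first of these lists, with 0.26 (limma adjusted p = 0.329). In the other lists it was PRR5, a subunit of mTORC2, with 0.27 and 0.19 on its probes (0.424 and 0.621), PHLPP1, a phosphatase that acts on AKT, with 0.24 (0.341), and RPS6KB1, a ribosomal S6 kinase, with -0.21 and -0.07 (0.483 and 0.850, by limma). RICTOR, the scaffold of mTORC2, was named for its role and was at -0.10. With the replicate block TRIB3 and TCL1B, both of which encode proteins that bind AKT, were also called, at 1.1 (limma adjusted p = 0.00283) and 0.58 (0.0201), as was DDIT4, an inhibitor of mTORC1, at 0.76 (0.0147). These 3 genes were also called with spike-in scaling, where limma gave each of them the same SE of 0.247. In the reported fit the SE was 0.995 for TRIB3, 0.338 for TCL1B and 0.470 for DDIT4. The calls with spike-in scaling therefore do not take in how far each gene spread between arrays.

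FOXO factors are shut out of the nucleus by AKT, and genes they induce were examined as a list. None of its 19 probes was called, 10 were higher and 9 lower, and the median was 0.02. This list does not hold SESN3, which FOXO factors also induce and which was called lower above. TNFSF10, which encodes the death ligand TRAIL, measured 7.73, 8.09 and 7.87 in control and 7.29, 7.51 and 7.11 in knockdown. The groups were apart, at -0.59 (SE 0.14, limma adjusted p = 0.105), and its second probe was at -0.42 (adjusted p = 0.158). With the replicate block TNFSF10 was called (limma adjusted p = 0.0297). The recombinase genes RAG1 and RAG2, of which the products rearrange the immunoglobulin genes, were at -0.10 (adjusted p = 0.758) and -0.44 (adjusted p = 0.191, both by limma), and were chosen after their values were seen.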

How the data were processed

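Gene expression was measured on 6 one-color arrays of an Agilent design (build hg19) that lay on 1 slide and were scanned once. Per the file headers, intensity was extracted with Feature Extraction 10.7.1.1. The deposited files hold raw median spot intensity, local background, processed intensity and other values, namely flags for outliers and for signal well above background, none of them normalized between arrays. The authors also deposited normalized log2 values of 27869 probes, made per the methods by stabilizing variance (VSN), then subtracting background and filtering against negative controls.

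Here the VSN model was fitted anew to raw median intensity (0.9 quantile of least squares kept), without outlier spots, and spots of 1 probe were averaged. Its log2 scale understates changes of dim probes. A probe was retained above 1.1 times the 0.95 quantile of the normalized values of the 308 negative control spots in 60% or more of the arrays of either group. This reading of the filter was chosen because it fitted the deposited probe set most closely (27145 probes shared), and the threshold on raw intensity is an alternative added after the data were seen. Arrays correlated with the deposited log2 values with r from 0.99904 to 0.99969 across probes. A missing value was left for 65 retained probes, none of them described here.

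Groups come from the labels. The test was that of limma 3.58.1 (lmFit and eBayes, two-sided, no block; R 4.3.3). Benjamini-Hochberg adjustment ran over all retained probes, and "called" means an adjusted p below 0.05. The labels number replicates 1 to 3 in both groups. Arrays of the same number deviated from their group means together (correlation over probes 0.43, 0.29 and 0.20). By the rule that every such correlation exceed 0.1, the numbers pair the samples. Arrays of unlike number gave -0.33 to 0.19, with 0.19 for control 2 with knockdown 3 and 0.17 for control 3 with knockdown 2, so that replicates 2 and 3 were not clearly told apart. A fit with the number as a block was an alternative, as were other normalizations, filters and priors, the slide row and leaving out each array. RefSeq accessions gave a symbol to 25728 of 34134 catalogue probes (75.4%). Named genes are all members, every pathway gene with a called probe and, per list, the uncalled gene with the smallest unadjusted p, unless stated, and a few pathway genes are not reported here. The members and lists were chosen with earlier results of these data known. The procedure was tested on simulated data, and figures were drawn with matplotlib 3.10.9.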

Additional observations from a re-analysis of the deposited data

How the results depend on the processing

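Of the results above, none of the 9 member probes was called under any of the 17 alternatives, and both PIK3CD probes, AKT1 and MTOR kept their direction under each of them. With spike-in scaling, PIK3CA turned to 0.35, PIK3CB to 0.15, RPTOR to 0.20 and RPS6KB1 to 0.15, where the median of all probes was 0.36. PIK3CB also turned with the slide row as a term (0.24). Leaving out 1 array at a time ranged PIK3CA from -0.12 to 0.04, with values above 0 when replicate 2 or 3 of control (0.037 and 0.026) or of knockdown (0.022 and 0.019) was dropped. It ranged PIK3CB from -0.50 to 0.31, the latter without control replicate 2, PIK3R1 from -0.015 without knockdown replicate 1 to 0.14, and INPP5D from -0.054 to 0.11, with -0.054 without control replicate 1, -0.045 without control replicate 3, -0.018 without knockdown replicate 2 and -0.034 without knockdown replicate 3. The called pathway probes numbered 1 with the processed signal, the deposited log2 values, the scanner flag as the filter or the threshold on raw intensity. They numbered 0 without a filter. With spike-in scaling they were 8, all higher and each with an SE of 0.247. In that fit 3.27% of all retained probes were called higher and 0.546% lower. With the replicate block they were 8, where 3.78% of all retained probes were called. The called pathway probes ranged from 0 to 3 when 1 array was left out: 0 when the array dropped was replicate 1 or 3 of control or replicate 2 or 3 of knockdown, 1 without control replicate 2, and 3 without knockdown replicate 1. For the fits without 1 array, the share over all retained probes is not given here. ETV6 was lower in knockdown under all 17 alternatives, from -0.96 to -0.34, and called with the intensity trend and robust prior (-0.70, limma adjusted p = 0.0436). Over all retained probes the replicate block called 1038 and the slide row 227, compared with 478. The block changed no other call among the results described beside those given with them. The causes were not tested.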

Other observations

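Replicate 1 differed from the other replicates in the same way in both groups for a few pathway genes, which were picked after their values were seen. Of the 160 retained pathway probes, 6 were over 1 log2 unit higher in replicate 1 than in the mean of replicates 2 and 3 in control and in knockdown alike, none was lower by as much in both, and none of the 9 member probes was either. This is 3.75% of the pathway probes, where 0.354% of the 27425 retained probes with a value on every array were higher by as much and 0.0547% lower. TRIB3, a pseudokinase that binds AKT, measured 15.36 in control replicate 1 against 12.23 and 12.51 in the others, and 16.41 in knockdown replicate 1 against 13.32 and 13.66. SESN2, a leucine sensor upstream of mTORC1, measured 10.87 against 8.98 and 8.98 in control, and 10.66 against 8.77 and 8.72 in knockdown. The same excess was 1.29 in control and 1.46 in knockdown for DDIT4, an inhibitor of mTORC1, 1.58 and 2.13 for its paralog DDIT4L, 1.09 and 1.04 for EIF4EBP1, the repressor of translation that mTORC1 inactivates, and 1.03 and 1.09 for a probe of GRB10, an adaptor that mTORC1 phosphorylates, of which the other probe, A_23_P122863, gave 0.69 and 0.44. The median size of this gap over the pathway probes was 0.18 in control and 0.22 in knockdown. No label names a difference between replicate 1 and the others, and its cause was not tested.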
